A study of Danio rerio with 3 samples.

Results

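The brain of sleep-deprived adult zebrafish was compared directly with the brain of fear-conditioned fish. The comparison uses 2 of the 3 arrays of the series, and the third, from naive fish, serves to say which of the 2 differed. Gene signals were taken from probe sets with exactly 1 gene symbol, averaged per gene, and 17958 of 19260 genes entered, namely those with at least 1 array at or above a log2 signal of 3.45, the lower quartile over the whole table and here called the dim limit. All fish were adults, 6 months old, kept at 28 °C. Naive fish had 14 h of light and 10 h of dark. Sleep deprivation was produced with 3 days of light for 24 h and dark for 0 h per day, so that loss of sleep and continuous light came together in 1 group. Fear-conditioned fish had been trained in inhibitory avoidance, in which an animal learns to hold back from a place where it meets an aversive stimulus, and the sources used here give no light schedule for them. No genotype, strain or sex is given either. Each group was 1 array, so there is no replicate error, no test and no p-value, and every difference describes these arrays only. The labels do not say whether an array held RNA of 1 fish or of several.

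Neurons that fire switch on immediate early genes within minutes, a response that is widely used to map active circuits and that accompanies the storage of aversive memories. Stress also releases cortisol, which acts through the glucocorticoid receptor on genes such as fkbp5 and klf9. Diurnal fish such as zebrafish sleep in the dark, and light both resets their clock and suppresses melatonin release from the pineal organ.

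Far more genes were lower than higher on the sleep-deprived array when it was set against the fear-conditioned array. Of the 17958 genes, 156 (0.869%) were lower by 2-fold or more and 24 (0.134%) higher by 2-fold or more. With a 1.5-fold limit the numbers were 487 (2.71%) and 101 (0.562%). A distance of 4-fold or more was reached by 19 genes in the lower and 4 in the higher direction. The central 95% of all differences ran from -0.61 to 0.32 on the log2 scale. Exactly equal signals on both arrays were found for 42.4% of genes, which is why the median difference over all genes was 0. The mean was -0.04, with 6193 genes lower and 4145 higher on the sleep-deprived array. Probe sets without a gene name had another balance, with 785 of 37914 lower by 2-fold or more and 979 higher by 2-fold or more.

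The naive array showed that both arrays contributed to these differences. A gene was assigned to an array when at least 75% of the distance between both arrays lay between that array and naive. Of the 156 lower genes, 64 were assigned to the sleep-deprived array, with a median log2 difference of -1.30 from naive, and 28 to the fear-conditioned array, with a median of 1.28. The other 64 were split, with a median of -0.66 on the sleep-deprived array and 0.65 on the fear-conditioned array. In 21 of the 156 the sleep-deprived array lay at least 1.5-fold below and the fear-conditioned array at least 1.5-fold above naive. Any gene with this pattern is over 2-fold apart, so these 21 are all such genes among the 17958 compared. Taken singly, 2.43% of all genes were that far below naive on the sleep-deprived array. On the fear-conditioned array 0.83% were that far above it. Among these 21 were cdh1, igfbp1a, mych, fosl1a and gfap. Of the 24 higher genes, 6 were assigned to the sleep-deprived array, 8 to the fear-conditioned array and 10 were split. In 40 of the 156 lower and 7 of the 24 higher genes naive lay outside both arrays, so both differed from it in the same direction. In 3 of the 156 both did so by at least 1.5-fold. An assignment to 1 array can therefore hold genes in which the other array differed from naive as well. The 2-fold limit cut through a continuum, with ctsa at -1.002 just inside it and emp3b at -0.996 just outside.

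**Figure D1:**
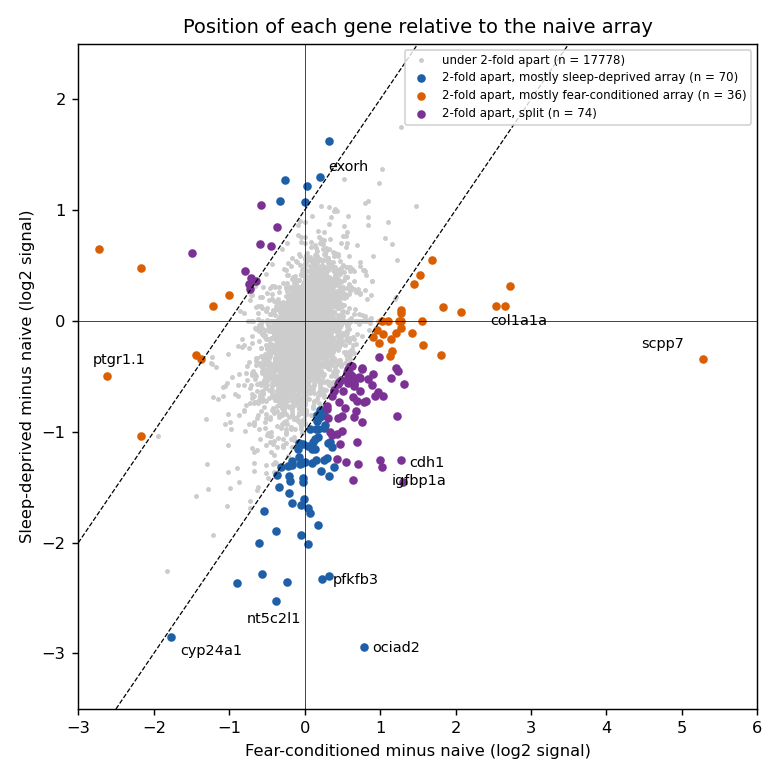
Difference from the naive array for each of 17958 genes, fear-conditioned on the horizontal and sleep-deprived on the vertical axis (log2 signal). Dashed lines mark a 2-fold difference between sleep-deprived and fear-conditioned fish, and the genes beyond them lie mostly below the lower line, where 64 differ mostly on the sleep-deprived array, 28 mostly on the fear-conditioned array and 64 on both.

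As a check of the tissue, the mean log2 signal over 31 neuronal genes was 9.17 on the naive, 9.24 on the fear-conditioned and 9.21 on the sleep-deprived array. The neuronal signal thus differed little between arrays, and the median difference of this list between sleep-deprived and fear-conditioned fish was 0.00. The 35 gene lists that follow are described by their counts and medians beside the 0.869% and 2.71% of all genes at least 2-fold and 1.5-fold lower. The shares of all genes at least 2-fold and 1.5-fold higher were 0.134% and 0.562%. A gene can belong to several lists and is then counted in each. Shares over all genes are not matched for signal level. Exact ties between both arrays depended on level, with 50.4% of probe sets in decile 4 of mean signal and 19.5% in decile 10, the brightest. In bulk tissue, fewer cells of a type and less RNA per cell cannot be told apart.

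**Figure D2:**
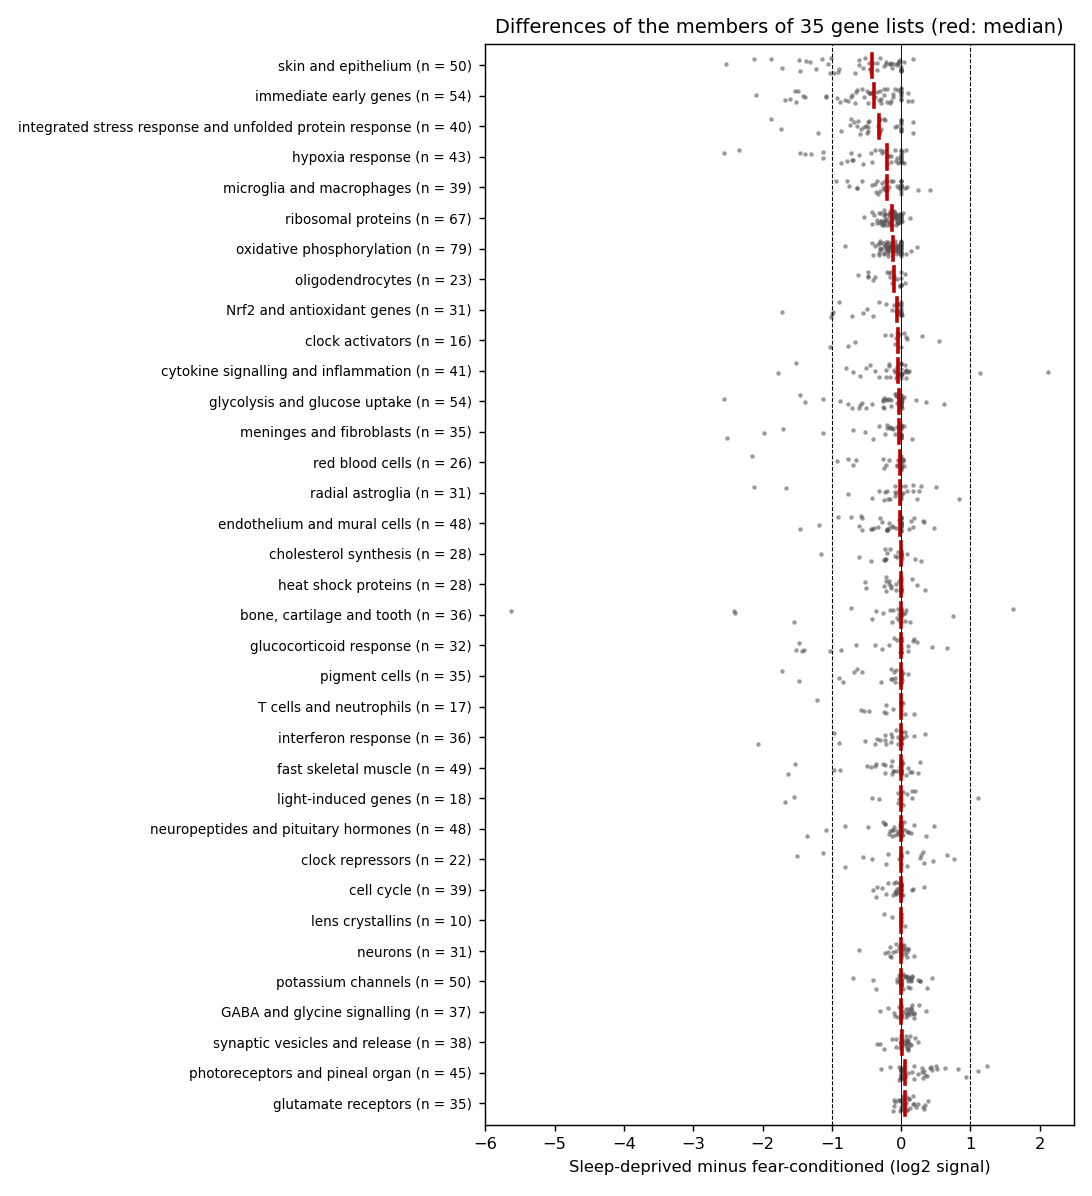
Log2 difference, sleep-deprived minus fear-conditioned, of every measured member of 35 gene lists (points) with the list median (red bar). The medians lie furthest below 0 for skin and epithelium (-0.42), immediate early genes (-0.40) and the integrated stress and unfolded protein responses (-0.32), and the points beyond the dashed 2-fold lines are mostly on the left.

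Many immediate early genes were lower in sleep-deprived than in fear-conditioned brain. Of 54 measured members, 10 were lower by 2-fold or more, 19 lower by 1.5-fold or more and 0 higher by 1.5-fold or more, and the list median was -0.40. The sleep-deprived array had the lowest of the 3 signals in 39 of the 54 genes (72.2%, against 23.5% of all genes), and the fear-conditioned array the highest in 26 (48.1%, against 20.1%). The list medians against naive were -0.27 for sleep deprivation and 0.03 for fear conditioning.

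Among the AP-1 transcription factors, fosl1a had log2 signals of 6.65 on the naive, 7.88 on the fear-conditioned and 5.79 on the sleep-deprived array. Naive fish lay between the trained and the sleep-deprived fish, which differed 4.26-fold. The signals of fosab, a zebrafish c-Fos gene, were 8.80, 9.23 and 7.56 in the same order, and those of fosb were 6.44, 6.75 and 5.34. For fosab and fosb most of the distance was on the side of the sleep-deprived array. For 3 further activity-induced transcription factors past 2-fold, at least 75% of the distance lay on that side. The nuclear receptor gene nr4a1 stood at 6.05 on both the naive and the fear-conditioned array and at 4.45 on the sleep-deprived array, a 3.03-fold difference. Signals of npas4a, a factor induced by calcium entry into neurons, were 9.53, 9.36 and 8.27, and those of csrnp1a 6.57, 6.54 and 5.16. In all of these genes the sleep-deprived array was the lowest. Over the 19 members past 1.5-fold, 9 were assigned to the sleep-deprived array, 8 were split and 2 were assigned to the fear-conditioned array, namely nr4a2b (5.84, 6.34 and 5.70) and klf4 (6.33, 6.90 and 6.25), named after their values were seen.

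Several genes that feed back on signalling also had their lowest signal on the sleep-deprived array. The kinase gene sik1, whose product restrains CREB-dependent transcription, was at 8.82 on the naive, 9.12 on the fear-conditioned and 7.59 on the sleep-deprived array. The MAP kinase phosphatase genes dusp1 (6.83, 7.08 and 5.57) and dusp2 (7.34, 7.12 and 6.03) were also lowest in sleep-deprived fish, by 2.85-fold and 2.12-fold against fear-conditioned fish. The signal of spry4, an inhibitor of receptor tyrosine kinase signalling, was 7.35, 8.04 and 6.54, with naive again in between. The list did not move as a block. The difference between sleep-deprived and fear-conditioned fish was 0.10 for egr1, which had 9.56, 9.56 and 9.65, and -0.12 for the neurotrophin gene bdnf.

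A few genes of the cortisol response, among them fkbp5 and klf9, were lower on the sleep-deprived array, while the list median was 0.00. Of 32 measured genes of the axis and its targets, 5 were lower by 2-fold or more, 7 lower by 1.5-fold or more and 1 higher by 1.5-fold or more. All 7 were assigned to the sleep-deprived array. Over the list 13 genes were lower, 8 higher and 11 exactly tied, and the median of 0.00 rests on these ties. The co-chaperone gene fkbp5, which dampens the glucocorticoid receptor, had signals of 10.23 on the naive, 10.56 on the fear-conditioned and 9.14 on the sleep-deprived array. The transcription factor klf9 was at 9.93, 10.08 and 8.68. Both lay close to naive in fear-conditioned fish and were over 2-fold lower in sleep-deprived fish. The factor cebpd was at 7.30, 7.13 and 5.66, and hsd11b2, whose product inactivates cortisol, at 7.29, 7.46 and 6.44. The fifth of these genes was dusp1, described above. The receptor gene nr3c1 differed by 0.17 and the hormone precursor gene pomca, exactly tied at 5.49 on each array, by 0.00. The enzyme gene hsd20b2, whose product reduces cortisone, differed by -0.65. The member higher by 1.5-fold or more was the clock gene per1a.

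Some targets of hypoxia-inducible factors, which raise glucose uptake and glycolysis and stimulate vessel growth, were lower in sleep-deprived fish. Of 43 measured members 7 were lower by 2-fold or more, 13 lower by 1.5-fold or more and 0 higher by 1.5-fold or more, with a median of -0.20, and 11 of the 13 were assigned to the sleep-deprived array. The enzyme gene pfkfb3, which sets the level of an activator of glycolysis, had signals of 11.06 on the naive, 11.29 on the fear-conditioned and 8.73 on the sleep-deprived array, a 5.89-fold difference. The growth factor binding protein gene igfbp1a was at 7.51, 8.54 and 6.19, with trained fish above and sleep-deprived fish below naive. The vessel growth factor vegfaa was at 7.78, 7.92 and 6.63, and the oxygen sensor egln3 at 6.58, 6.41 and 5.28. For pfkfb3, vegfaa and egln3 the fear-conditioned array stayed near naive. Over the whole list 29 genes were lower (67.4%), 5 higher (11.6%) and 9 equal. The shares of all genes, not matched for signal level, were 34.5% lower and 23.1% higher. Other members were level, such as ldha, bnip3 and pdk1, named after their values were seen, with differences of 0.02, 0.07 and 0.00. The signals of pdk1 were exactly tied.

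Some genes of glucose uptake and glycolysis were lower, in part the same genes as in the hypoxia list. Among 54 genes of glycolysis and glucose uptake, 4 were lower by 2-fold or more, 9 lower by 1.5-fold or more and 1 higher by 1.5-fold or more, and the median was -0.04. All 4 genes past 2-fold, namely pfkfb3, slc2a1b, slc2a3b and hk2, were already counted in the hypoxia list. The gene slc2a1b is counted again among the endothelial genes below. The transporter genes slc2a1b (9.06 naive, 9.49 fear-conditioned, 8.03 sleep-deprived) and slc2a3b (7.33, 7.44 and 6.05) were 2.74-fold and 2.61-fold lower in sleep-deprived than in fear-conditioned fish. The hexokinase gene hk2 was at 6.65, 6.80 and 5.68. Their relatives slc2a3a and hk1, named after their values were seen, differed by -0.15 and 0.00, the latter an exact tie. The transporter gene slc2a1a differed by -0.61. On the other side, gapdh was at 5.52 on both the naive and the sleep-deprived array and at 6.29 on the fear-conditioned array.

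The integrated stress response, through which ATF4-family factors raise amino acid supply, and the unfolded protein response were measured with 40 genes. Of these, 3 were lower by 2-fold or more, 10 lower by 1.5-fold or more and 0 higher by 1.5-fold or more, with a median of -0.32, and 7 of the 10 were assigned to the sleep-deprived array, 3 to neither and 0 to the fear-conditioned array. The factor atf5b was at 11.12 on the naive, 11.07 on the fear-conditioned and 9.19 on the sleep-deprived array. The pseudokinase gene trib3, an ATF4 target, was at 7.64, 7.69 and 5.96. Naive and trained fish thus had nearly equal signals of both genes. Enzymes of serine synthesis were lower as well, psat1 2.29-fold and phgdh 1.67-fold, and so were the mTORC1 inhibitor ddit4, 1.82-fold, and the amino acid transporter subunit slc3a2b, 1.65-fold. The gene ddit4 was already counted at 1.5-fold in the cortisol and hypoxia lists. Over the 40 genes, 30 were lower (75%), 2 higher (5%) and 8 equal. Over all genes, not matched for signal level, 34.5% were lower and 23.1% higher. Genes of the unfolded protein response, picked after their values were seen, were mixed. The 2 higher genes were hsp90b1 and pdia4, at 0.17 each. The difference was -0.32 for hspa5 and -0.47 for xbp1. Signals of herpud1, dnajb9a, dnajb9b and sdf2l1 were exactly tied between both arrays, as were those of 42.4% of all genes.

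Among 31 genes of the Nrf2 pathway and antioxidant defence, 3 were lower by 2-fold or more, 6 lower by 1.5-fold or more and 0 higher by 1.5-fold or more, and the median was -0.06. Those 3 encode regulators rather than enzymes. The signals of nfe2l2b, a Nrf2 gene, were 4.84 on the naive, 5.16 on the fear-conditioned and 3.44 on the sleep-deprived array, the last just below the dim limit, and its difference of -1.72 was -1.71 with that limit used instead. The related factor nfe2l1a was at 5.79, 5.99 and 4.99, and keap1a, whose product holds Nrf2 in check, at 6.93, 7.53 and 6.52. The differences of the enzyme genes gclc, for glutathione synthesis, and prdx1, a peroxidase, were -0.99 and -0.89. Heat shock proteins had 0 of 28 genes apart by 1.5-fold or more in either direction, with -0.53 for hspb1 and 0.34 for hspa1b at the ends. This count is near the share of all genes, of which 2.71% were lower and 0.562% higher by 1.5-fold or more.

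**Figure D3:**
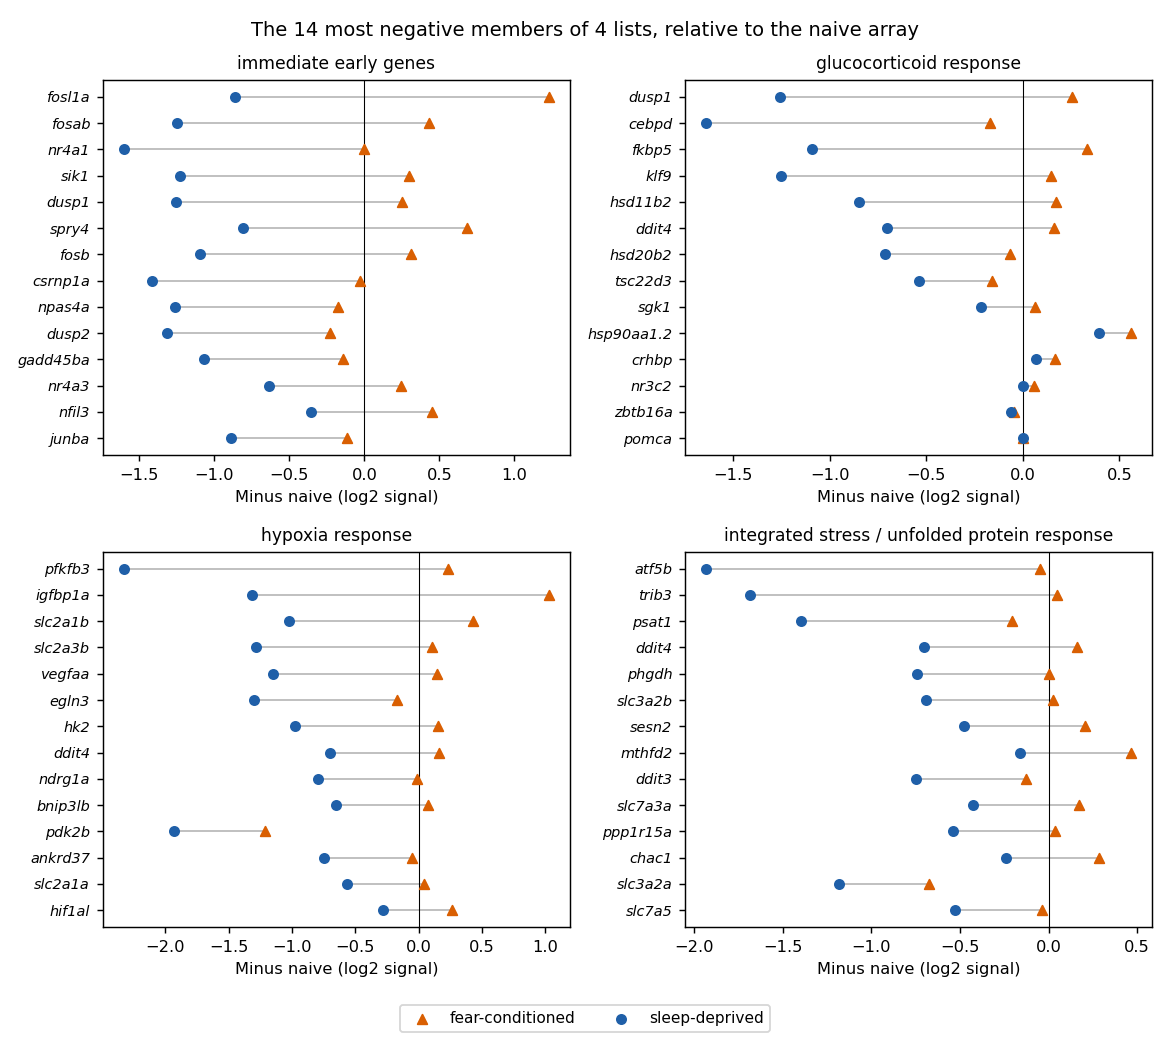
Log2 difference from naive of the 14 genes with the most negative sleep-deprived minus fear-conditioned difference in each of 4 lists (triangles, fear-conditioned; circles, sleep-deprived; the vertical line is naive). Circles lie to the left of their triangles, except where pomca has both at 0, mostly with the triangle near naive, whereas igfbp1a and fosl1a have the triangle well to the right of 0 and the circle below 0.

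Clock genes differed in both directions. The labels hold no sampling time, so time of day and treatment cannot be told apart for these genes. Of 22 repressors of the clock, 2 were lower by 2-fold or more, with a median of 0.00. By 1.5-fold or more, 3 were lower (13.6%, against 2.71% of all genes) and 2 higher (9.09%, against 0.562%). The 3 lower genes all encode Nfil3-type repressors of D-box promoters. The gene nfil3-5 was at 8.16 on the naive, 8.53 on the fear-conditioned and 7.02 on the sleep-deprived array, nfil3-6 at 10.08, 10.66 and 9.52, and nfil3 at 7.45 on the fear-conditioned and 6.64 on the sleep-deprived array. In each, trained fish were above and sleep-deprived fish below naive. The gene nfil3 was already counted among the immediate early genes. Period and Rev-erb genes went both ways. The signals of per1a were 6.83, 6.71 and 7.37 and those of nr1d1, which encodes Rev-erb alpha, 9.40, 8.97 and 9.72, so that the sleep-deprived array was the highest. A second Rev-erb gene, nr1d2a, was lowest there, at 9.11, 9.16 and 8.60. The differences were 0.47 for per3 and 0.08 for per1b, and -0.41 for per2, whose trained signal of 8.49 was above 7.99 in naive and 8.07 in sleep-deprived fish. Of 16 clock activators and D-box activators, 1 was lower by 2-fold or more, npas2 (7.83, 8.39 and 7.36), a partner of Bmal1, and 3 were lower by 1.5-fold or more. The D-box activators had no common direction, with differences of 0.55 for dbpa, 0.31 for dbpb and -0.66 for hlfb. Those of the other 3, given after their values were seen, were 0.09 for tefa, 0.00 for the exactly tied tefb and -0.04 for hlfa.

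Photoreceptor and pineal genes formed the list with most members higher by 1.5-fold or more on the sleep-deprived array. Of 45 measured genes, 2 were higher by 2-fold or more and 5 (11.1%) by 1.5-fold or more, against 0.134% and 0.562% of all genes. Lower by 1.5-fold or more were 0 genes, and the median was 0.05. The sleep-deprived array had the highest signal in 24 of the 45 genes (53.3%, against 16.1% of all genes). The pineal opsin gene exorh was at 6.58 on the naive, 6.78 on the fear-conditioned and 7.88 on the sleep-deprived array, and the phosphodiesterase subunit pde6gb at 7.13, 7.35 and 8.17. Both genes were near naive in trained fish. For otx5, a factor that drives pineal genes in zebrafish, the contributions were the reverse, with 5.14 on the naive, 4.13 on the fear-conditioned and 5.37 on the sleep-deprived array. The arrestin gene saga was at 5.45, 5.22 and 6.15. The melatonin synthesis enzyme aanat2 was at 5.89, 5.89 and 6.08.

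The nocturnin gene nocta belonged to the 18 light-induced genes and was at 7.12 on the naive, 7.94 on the fear-conditioned and 6.40 on the sleep-deprived array. With fosab it made up the 2 members lower by 2-fold or more (11.1%, against 0.869% of all genes). The 1 member higher by 2-fold or more, as were 0.134% of all genes, was exorh. The list median was 0.00.

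Skin, collagen and tooth genes were among those with the highest signals on the fear-conditioned array. Of 50 measured skin and epithelial genes, 13 were lower by 2-fold or more on the sleep-deprived array, 19 lower by 1.5-fold or more and 0 higher by 1.5-fold or more, with a median of -0.42. The fear-conditioned array had the highest signal in 38 of the 50 (76.0%, against 20.1% of all genes) and the sleep-deprived array the lowest in 29 (58.0%, against 23.5%). Of the 19 genes past 1.5-fold, 8 were assigned to the fear-conditioned array, 1 to the sleep-deprived array and 10 were split. Among the adhesion genes, cdh1, which encodes E-cadherin, was at 5.12 on the naive, 6.40 on the fear-conditioned and 3.87 on the sleep-deprived array, and epcam at 4.15, 5.47 and 3.59. Sleep-deprived fish were below naive in both genes and trained fish above. The keratin gene krt5 was at 6.97, 8.79 and 6.67, close to naive in sleep-deprived fish. The claudin gene cldnb (5.72, 6.75 and 5.04), the keratin krt4 (5.88, 6.78 and 5.30) and the plakophilin pkp3a (4.83, 5.97 and 4.51) had naive in between. The other 7 genes lower by 2-fold or more, namely agr1, ppl, anxa1c, muc5.2, evpla, krt97 and spint1a, had differences from -1.37 to -1.02. Signals of the 2 probe sets of ppl differed by -1.64 and -0.97, and the brighter alone was short of 2-fold.

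Among 35 genes of meninges and fibroblasts, 4 were lower by 2-fold or more, 5 lower by 1.5-fold or more and 0 higher by 1.5-fold or more, although the median was -0.03. The 3 genes of type I collagen, the main fibre of skin, bone and meninges, had the same order of arrays. The signals of col1a1a were 5.41 on the naive, 8.07 on the fear-conditioned and 5.55 on the sleep-deprived array, those of col1a2 5.44, 7.51 and 5.53, and those of col1a1b 5.75, 7.58 and 5.88. The sleep-deprived signals were close to naive in these 3 genes, and the trained fish were over 3-fold above it. The fourth gene, pcolcea, which aids the trimming of procollagen, was at 5.88, 6.39 and 5.25.

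Matrix genes of bone and tooth gave the largest difference of all genes. The secretory calcium-binding phosphoprotein gene scpp7 had signals of 3.57 on the naive, 8.85 on the fear-conditioned and 3.22 on the sleep-deprived array. Its sleep-deprived signal was below the dim limit, and the log2 difference of -5.62 became -5.39 when that limit replaced it. The ameloblastin gene ambn was at 4.70, 7.24 and 4.83, the enamelin gene enam at 4.25, 5.80 and 4.25, and col10a1a, a collagen of bone and hypertrophic cartilage, at 3.57, 6.30 and 3.89. The 3 probe sets of col10a1a differed by -4.30 to -0.52. In all 4 genes the naive and sleep-deprived arrays were alike and the trained fish stood apart. Over the 36 genes of this list, 4 were lower by 2-fold or more (11.1%) and 5 by 1.5-fold or more (13.9%), with a median of 0.00. Over all genes the shares were 0.869% and 2.71%. Higher by 1.5-fold or more were 2 genes (5.56%, against 0.562% of all genes). The 1 gene higher by 2-fold or more was and1 at 5.95, 5.37 and 6.99, which encodes actinodin of fin rays.

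Of 49 fast muscle genes, 2 were lower by 2-fold or more, the creatine kinase gene ckma (4.87, 6.08 and 4.44) and the parvalbumin gene pvalb2 (3.48, 4.90 and 3.37). By 1.5-fold or more 4 were lower (8.16%, against 2.71% of all genes), with a median of 0.00. The naive and sleep-deprived signals of pvalb2 were close to or below the dim limit. Summed linear signals of the whole lists were highest on the fear-conditioned array in each of these 4 lists, while the lowest was the sleep-deprived array for skin and fibroblast genes and the naive array for bone and muscle genes. They were 3982, 4872 and 3464 over the skin genes on the naive, fear-conditioned and sleep-deprived arrays, 3557, 4197 and 3203 over the fibroblast genes, 1701, 2302 and 1719 over the bone and tooth genes and 1952, 2141 and 1973 over the muscle genes. The sums over all genes compared were 3.47e+06, 3.50e+06 and 3.38e+06, also highest on the fear-conditioned and lowest on the sleep-deprived array. Such sums weigh the brightest signals most, so they do not describe the typical member of a list. The part of non-neural tissue in the other differences given here was not tested. Without the members of these 4 lists and of the pigment cell list, 131 genes were lower by 2-fold or more and 23 higher, and of the 131 there were 62 assigned to the sleep-deprived array, 15 to the fear-conditioned array and 54 to neither.

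**Figure D4:**
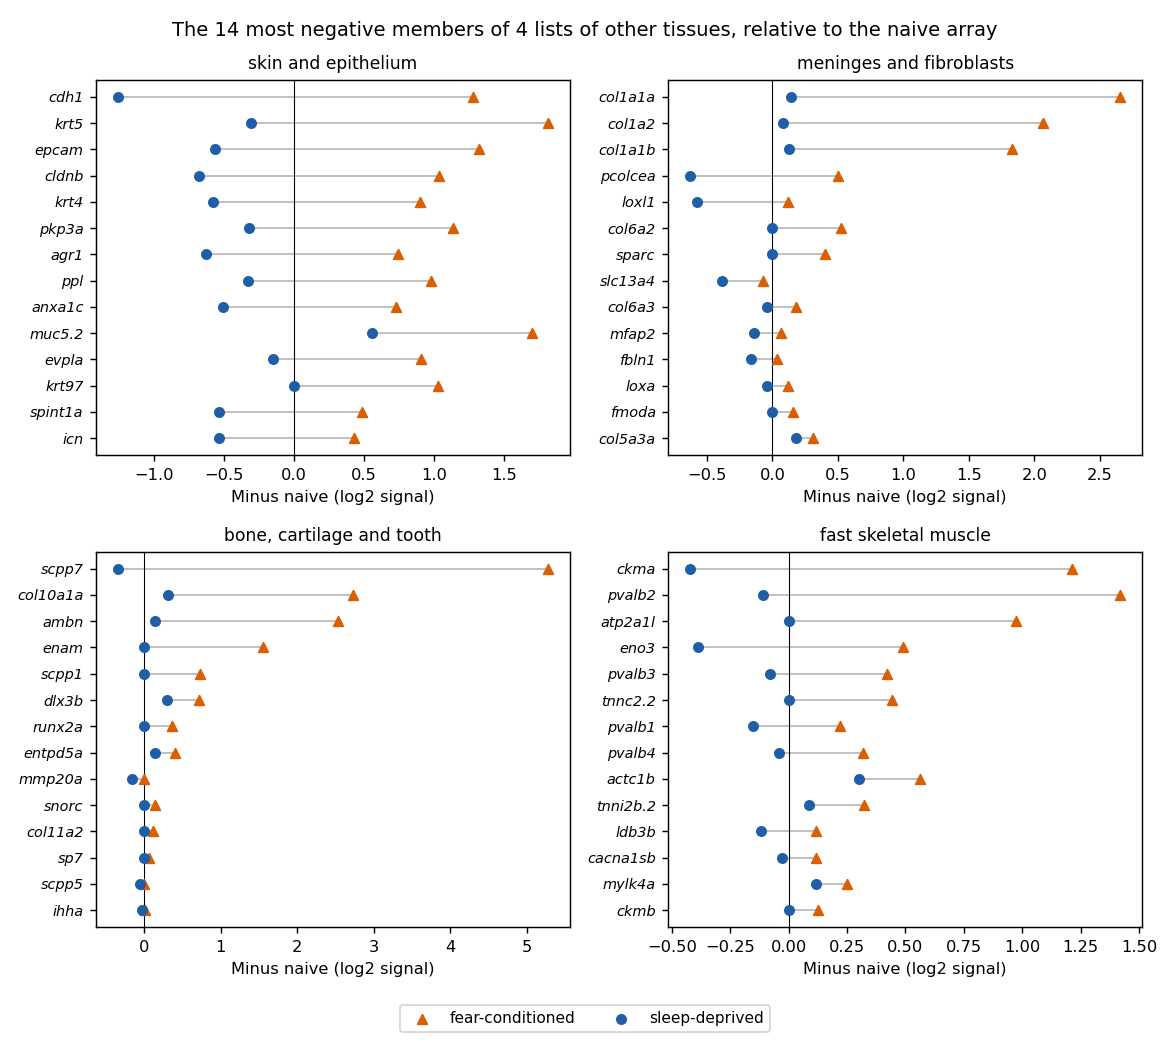
Log2 difference from naive of the 14 genes with the most negative sleep-deprived minus fear-conditioned difference in 4 lists of tissues other than brain (triangles, fear-conditioned; circles, sleep-deprived; the vertical line is naive). The triangles of the type I collagen genes and of scpp7, col10a1a, ambn and enam lie far to the right while their circles are near 0, whereas in the skin list cdh1 has them at 1.27 and -1.26.

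Glial and immune lists had 0 to 2 members each lower by 2-fold or more, where 0.869% of all genes were. In radial astroglia, the stem cells and supporting glia of the fish brain, 2 of 31 genes (6.45%) were lower by 2-fold or more and the median was -0.02. The gene nes, for the intermediate filament nestin, was at 8.79 on the naive, 8.56 on the fear-conditioned and 6.43 on the sleep-deprived array. A second filament gene, gfap, was at 8.30, 9.05 and 7.39, with naive in between. Brain aromatase, cyp19a1b, differed by -0.76, and timp4.3, an inhibitor of matrix proteases, by 0.84 because its trained signal was low (8.75, 7.52 and 8.36).

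In the microglial and macrophage list of 39 genes, 5 were lower by 1.5-fold or more (12.8%, against 2.71% of all genes). None was lower by 2-fold or more or higher by 1.5-fold or more, and the median was -0.20. This list was lower than naive on both arrays, with medians of -0.50 for sleep deprivation and -0.25 for fear conditioning, so the direct comparison showed only the distance between them. The signals were 9.47, 8.96 and 8.17 for lgals3bp.1, a secreted galectin ligand, 9.38, 8.94 and 8.20 for the lysosomal protease ctsd, 8.84, 8.38 and 7.75 for apoeb and 8.56, 7.54 and 6.89 for the progranulin gene grna.1. In these 4 genes the arrays had the order naive, fear-conditioned and sleep-deprived from high to low. The pan-leukocyte gene ptprc departed from it, at 5.86, 6.72 and 5.78.

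In the interferon response, 1 of 36 genes was lower by 2-fold or more (2.78%, against 0.869% of all genes) and the median was 0.00. The ubiquitin-like modifier isg15 was at 7.93 on the naive, 7.98 on the fear-conditioned and 5.92 on the sleep-deprived array, and irf7, a driver of interferon transcription, at 7.31, 6.59 and 5.62. Cytokine signalling had genes in both directions, with 2 of 41 lower by 2-fold or more and 2 higher (4.88% each). Over all genes 0.869% were lower and 0.134% higher by 2-fold or more. The feedback inhibitor socs3a was at 7.06, 6.68 and 5.17, and the gp130 cytokine il11a at 4.68, 6.25 and 4.47. Higher were ptgr1.1, which breaks down prostaglandins and leukotrienes, at 7.23, 4.62 and 6.73, and traf3ip2l, an adaptor of interleukin-17 receptors, at 7.44, 5.27 and 6.41. For il11a, ptgr1.1 and traf3ip2l it was the trained array that lay furthest from naive.

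Several further lists had 1 or 2 genes lower by 2-fold or more, as were 0.869% of all genes. Among 35 pigment cell genes these were tspan36 (9.07 naive, 8.51 fear-conditioned, 6.79 sleep-deprived) and rab38c, a GTPase of melanosomes. The signal of rab38c was below naive at 6.11 on the fear-conditioned and further below at 4.64 on the sleep-deprived array. Lower by 1.5-fold or more were 6 of the 35 (17.1%, against 2.71% of all genes), all assigned to the sleep-deprived array. All 6 were below naive on the fear-conditioned array too, from -0.89 for rab38c to -0.11 for tspan10. Among 26 red blood cell genes nt5c2l1 (9.21, 8.83 and 6.68) was lower by 2-fold or more. In that list 5 genes were lower by 1.5-fold or more (19.2%), 4 of them assigned to the sleep-deprived array. Also lower by 2-fold or more were slc2a1b and etsrp (4.56, 5.83 and 4.66), a master factor of vessel formation, among 48 genes of endothelium and mural cells. Among 28 genes of cholesterol synthesis it was hmgcra (7.68, 8.72 and 7.57), which encodes the rate-limiting enzyme. For hmgcra and etsrp the sleep-deprived array was near naive and the trained array above it. Of 17 genes of T cells and neutrophils, 1 was lower by 2-fold or more, the receptor gene tnfrsf9a (6.92, 7.09 and 5.87).

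Of 48 neuropeptide and pituitary hormone genes, 2 were lower by 2-fold or more (4.17%) and 3 by 1.5-fold or more (6.25%), with a median of 0.00. Over all genes the shares were 0.869% and 2.71%. Higher by 1.5-fold or more were 0 genes. The gene gnrh3, for a gonadotropin-releasing hormone, was at 6.35 on the naive, 7.19 on the fear-conditioned and 5.83 on the sleep-deprived array, and pmchl, a melanin-concentrating hormone gene, at 7.94, 7.91 and 6.83. Trained fish had the highest gnrh3 signal and sleep-deprived fish the lowest of both genes. The wake-promoting peptide gene hcrt was exactly tied at 5.04 on each array, and 42.4% of all genes were tied between the sleep-deprived and fear-conditioned arrays. Oxytocin, oxt, differed by 0.10 because both arrays were above naive, with 9.06 on the naive, 9.90 on the fear-conditioned and 10.00 on the sleep-deprived array. The opioid precursor gene pdyn, at 7.21, 7.44 and 7.91, differed by 0.47.

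Large protein complexes shifted by small amounts in many members. Of 67 cytosolic ribosomal protein genes, 59 were lower on the sleep-deprived array, 3 higher and 5 equal, with a median of -0.13 and 0 apart by 1.5-fold or more. Over all genes 34.5% were lower on this array and 23.1% higher, shares that include dimmer genes with more exact ties and are not matched for signal level. The largest differences were -0.53 for rps27a and -0.42 for rps6 and for rps29. Against naive the list medians were -0.08 for sleep deprivation and 0.03 for fear conditioning. Of 79 nuclear genes of oxidative phosphorylation, 59 were lower, 3 higher and 17 equal, with a median of -0.11. Here the medians against naive were 0.00 for sleep deprivation and 0.12 for fear conditioning, and the fear-conditioned array had the highest signal in 55 genes (69.6%, against 20.1% of all genes). The complex IV subunit ndufa4a was at 10.27, 10.92 and 10.11. Myelin and oligodendrocyte genes had 17 of 23 lower and a median of -0.11, with mbpa, the myelin basic protein gene, at 11.76, 11.86 and 11.38.

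Genes of synapses and channels leaned towards higher signals in sleep-deprived fish, also by small amounts. Of 35 glutamate receptor genes, 24 were higher on the sleep-deprived array, 7 lower and 4 equal, with a median of 0.05 and 0 apart by 1.5-fold or more. The metabotropic receptor gene grm7 was at 8.75 on the naive, 9.03 on the fear-conditioned and 9.41 on the sleep-deprived array, and the AMPA receptor gene gria4b at 9.04, 8.97 and 9.31. In GABA and glycine signalling 18 of 37 genes were higher and 6 lower, led by the receptor subunit gabra2b (9.27, 9.42 and 9.77). Of 38 genes of synaptic vesicles and release 20 were higher and 9 lower, and of 50 potassium channel genes 22 and 9, with kcnh1a at 0.45 and kcnk3a at -0.69. The medians of these 3 lists were 0.00, 0.01 and 0.00, so that the lean shows in the counts and not in the typical gene. Over all genes 23.1% were higher on the sleep-deprived array, 34.5% lower and 42.4% equal. These shares are not matched for signal level, and exact ties were fewest in the brightest decile, at 19.5% of probe sets. Cell cycle genes had 0 of 39 members apart by 1.5-fold or more, and lens crystallins 0 of 10, most of them exactly tied. Both counts are near the share of all genes, of which 2.71% were lower and 0.562% higher by 1.5-fold or more.

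**Figure D5:**
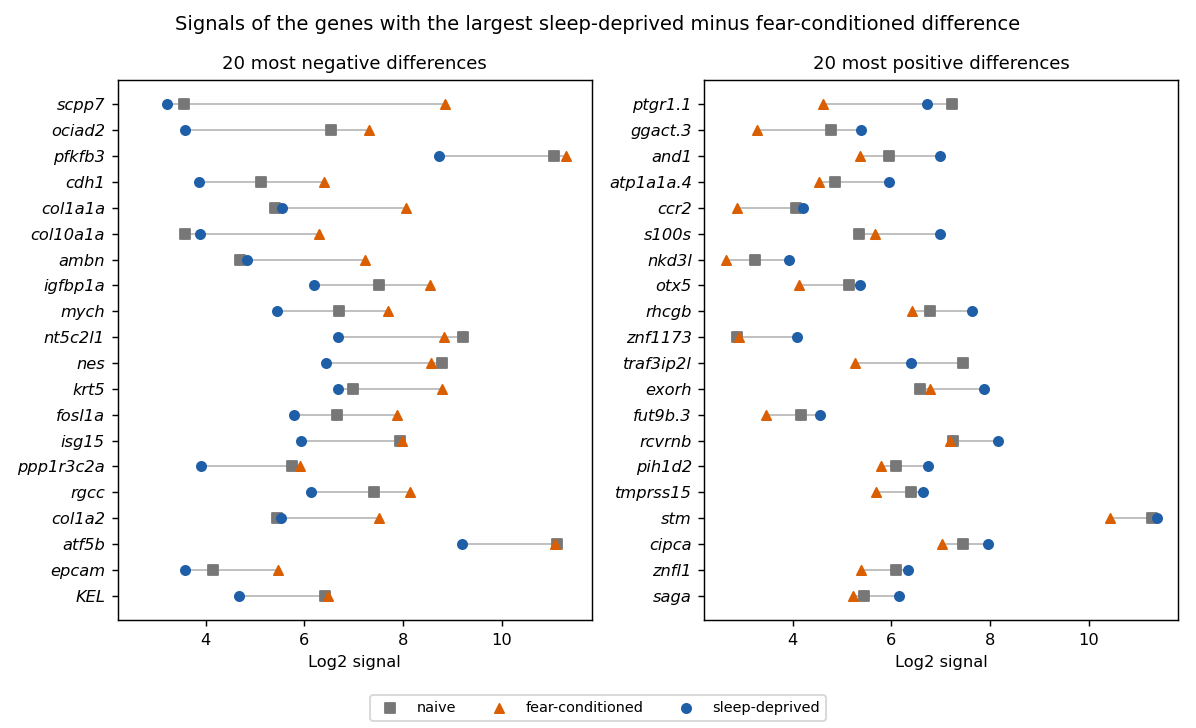
Log2 signal on the naive (squares), fear-conditioned (triangles) and sleep-deprived (circles) arrays for the 20 named genes with the most negative and the 20 with the most positive difference between sleep-deprived and fear-conditioned fish. Triangles stand alone on the right for scpp7, col1a1a, col10a1a and ambn, and circles stand alone on the left for ociad2, pfkfb3, nes, isg15 and atf5b.

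Of the 156 genes lower by 2-fold or more, 89 belonged to none of the lists. The largest was ociad2, which encodes a protein of mitochondria and endosomes, at 6.53 on the naive, 7.31 on the fear-conditioned and 3.59 on the sleep-deprived array, the last close to the dim limit. The Myc family gene mych was at 6.70, 7.70 and 5.44, and rgcc, a regulator of cell cycle and hypoxic growth arrest, at 7.42, 8.13 and 6.13. Both had naive in between. The glycogen regulator ppp1r3c2a was at 5.74, 5.92 and 3.90 and KEL, named for the Kell blood group protein, at 6.41, 6.48 and 4.67, with trained fish near naive. The genes in the next sentences were picked after their values were seen. Mitochondrial regulators with naive in between were pprc1, a coactivator of mitochondrial biogenesis (5.59, 6.57 and 4.95), slc25a25a, a calcium-dependent ATP carrier (5.80, 6.74 and 5.13), higd1a (8.01, 8.66 and 7.15) and cpt1a2b, which admits fatty acids to mitochondria (4.61, 5.31 and 3.89). Enzymes of methionine and amino acid metabolism were mat2ab (7.58, 8.22 and 7.02), cbsa (4.78, 4.88 and 3.68), gnmt (6.66, 6.83 and 5.68), gpt2 (8.16, 8.23 and 7.18) and tdh (9.19, 9.12 and 8.09). In all of these the sleep-deprived array was the lowest. The autophagy genes dram1 (6.81, 6.73 and 5.65) and dram2a (7.09, 6.75 and 5.59) were also lowest there.

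Named genes with higher signals in sleep-deprived than in fear-conditioned fish were few, and 11 of the 24 higher by 2-fold or more had only clone or locus names. The sodium pump gene atp1a1a.4 was at 4.87 on the naive, 4.54 on the fear-conditioned and 5.95 on the sleep-deprived array, the ammonia channel gene rhcgb at 6.79, 6.43 and 7.64, and s100s, of the S100 calcium-binding proteins, at 5.35, 5.68 and 6.98. In these 3 genes the sleep-deprived array stood highest. The gene ggact.3, for a cyclotransferase that acts on crosslinked peptides, was at 4.77, 3.28 and 5.39, and the chemokine receptor gene ccr2 at 4.08, 2.87 and 4.21, so that the trained array was the low one. Both trained signals lay under the dim limit. Raising them to it gave differences of 1.93 for ggact.3 and 0.76 for ccr2. In the same way znf1173, at 2.88 on the naive and 2.91 on the fear-conditioned array, went from a difference of 1.19 to 0.64 and nkd3l (3.24, 2.65 and 3.94) came to 0.48, both short of 2-fold, while fut9b.3 was at 4.18, 3.46 and 4.56. Just under 2-fold lay rcvrnb, a recoverin gene of photoreceptors (7.25, 7.18 and 8.15), pih1d2 (6.09, 5.79 and 6.75), tmprss15 (6.40, 5.69 and 6.64), the starmaker gene stm, for an otolith protein (11.28, 10.43 and 11.38), cipca, a repressor of Clock (7.45, 7.02 and 7.97), and znfl1 (6.09, 5.39 and 6.33).

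Some genes lay far from naive in the same direction on both arrays, so that the direct comparison gives only the distance between these. They were picked after their values were seen. The vitamin D-inactivating enzyme cyp24a1 was at 8.22 on the naive, 6.45 on the fear-conditioned and 5.37 on the sleep-deprived array, and the pyruvate dehydrogenase kinase gene pdk2b at 7.50, 6.28 and 5.57. The direct differences of these 2 genes were -1.08 and -0.71, past 2-fold and 1.5-fold. The urotensin-related peptide gene urp2 was at 7.62, 6.18 and 6.05, nearly equal in trained and sleep-deprived fish. Higher than naive on both were the MHC class I gene mhc1uba (8.21, 9.22 and 9.57) and the squalene epoxidase gene sqlea (4.87, 6.34 and 5.90). Both comparisons with naive share 1 naive array, so a deviation of that array and a change common to both treatments cannot be told apart.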

How the data were processed

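Brain RNA of adult zebrafish was measured on 3 biotin-labelled GeneChip arrays, 1 per group, and groups were taken from the labels. The authors' deposited table holds 1 value per probe set and array. Their range of 0.61 to 13.4 is that of log2 signals, and the deposited values are treated as log2 here although the base is not stated. The 3 arrays share a median of 4.99, so the authors normalized them by an unstated method, and a shift of all genes in 1 direction would not show. Exact ties were frequent, at 40.2% of probe sets between the sleep-deprived and fear-conditioned arrays.

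Of 75212 probe sets, 20806 had 1 symbol in the platform annotation, 855 several and 53551 none, and 20323 symbols were updated through Entrez identifiers with the RefSeq gene table of GRCz12tu. Probe sets were averaged per gene with pandas 2.3.3, and 1302 genes below 3.45 on every array were left out. This dim limit is no measured background. Named genes were the 20 most negative and 20 most positive differences (names of clones and loci left out), up to 6 members of each list and every member 2-fold apart, and 16 genes fixed by name. The comparison, its members and the lists were chosen with earlier results of these data known. Counting and assignment were tested on simulated data with each change placed on 1 array, an assumed noise level and no exact ties. These settings differ from the data, so the test checks the calculation and not the counts found here. The number of arrays limits the precision. No sequences were used here.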

Additional observations from a re-analysis of the deposited data

How the results depend on the processing

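With 1 array per group no difference has a replicate check, and no paired analysis was possible because each group holds 1 sample. Alternatives were centring each array, quantile normalization, removal of a lowess trend (fraction 0.3), the brightest probe set, no dim filter, a filter at 4.99, dim values raised to the dim limit, a 1.5-fold threshold, assignment at 2 in 3 of the difference and, added after the data were seen, leaving out genes of other tissues. Across the alternatives at 2-fold, 131 to 162 genes were lower and 17 to 29 higher. At 1.5-fold, 487 were lower, of which 227 were assigned to the sleep-deprived array, 78 to the fear-conditioned array and 182 to neither, and 101 were higher, assigned as 30, 35 and 36. The number of higher genes assigned to neither array was 6 with the filter at 4.99 and also 6 with assignment at 2 in 3. Without genes of other tissues, 15 of the lower genes were assigned to the fear-conditioned array in place of 28. Centring moved the median of all differences by 0.05 and put npas2, krt97, hsd11b2, spint1a, keap1a and nfe2l1a just short of 2-fold. Of 1654 recomputed values of named genes, 13 crossed the 2-fold limit. None of those at least 2-fold apart changed sign under these alternatives. Promoter motifs, planned as a description, were not run.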
